A study of Homo sapiens with 9 samples.

Results

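The genes of the insulin-like growth factor (IGF) axis were examined in ATAC-seq data from SK-N-MC, a long-established line of Ewing sarcoma cells. The 10 genes were listed by name, with earlier results of these data known: the ligands IGF1 and IGF2, the receptors IGF1R and IGF2R, the binding proteins IGFBP1 to IGFBP5 and the adaptor IRS1. They are 10 of the 19974 protein-coding genes of the RefSeq table on chromosomes 1 to 22 and X, and all 10 were matched by symbol. Each gene was taken with 50 kb on both sides, here called its window, and every accessible region of the deposited lists that shared at least 1 bp with a window was counted.

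All cells carried a doxycycline-inducible short hairpin RNA and were given 100 ng/ml doxycycline for 48 h. The first group expressed shCHD4#1 (hairpin 1) and the next shCHD4#2 (hairpin 2), both labelled CHD4 knockdown, where CHD4 is a chromatin remodelling ATPase found in the NuRD complex. The control group expressed shScramble, a non-targeting hairpin, and is labelled wild type. There were 3 samples in each group, 9 in all, and 100000 SK-N-MC cells of each were mixed with 100 Drosophila S2 cells. One cell line was used throughout, so the lists describe this line alone. ATAC-seq tags open DNA with the Tn5 transposase. One list of accessible regions per group was analysed. Because each group had 1 list, there was no spread between replicates to hold a difference against, and no test between groups is given.

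IGF1 and IGF2 are secreted ligands of IGF1R, a receptor tyrosine kinase that signals through IRS1 to the PI3K and MAPK pathways. IGF2R binds IGF2 without a kinase of its own and takes it to lysosomes, and the IGFBPs hold the ligands outside the cell. Ewing sarcoma cells are known to depend on IGF1R signalling, and the EWSR1::FLI1 fusion of this tumour is known for repressing IGFBP3.

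Whole lists differed in length, which bears on every number below. There were 122869 regions with hairpin 1, 83241 with hairpin 2 and 85775 with shScramble, or 1.43 and 0.97 times the shScramble number. Read depth was unknown. The lists carry a p-value from the authors for each region, and 11.9%, 13.1% and 12.6% of regions in the same order had one of at most 0.05. For marker genes without a matched start site, as CCND1, both gene ends were used. All 6 Ewing sarcoma marker genes examined (NR0B1, NKX2-2, STEAP1, CCND1, PRKCB and LIPI) had a region within 1 kb of a start site or gene end in every list. Of 10 markers of blood, liver, muscle and epithelium, 6, 4 and 5 had one, so open chromatin at a start site or gene end does not by itself mark the cell type. PTPRC, ALB, KRT5 and CDH1 had none in any list. The window of CHD4 itself held 19 regions with hairpin 1, 17 with hairpin 2 and 16 with shScramble, and such lists hold no measure of CHD4 RNA or protein.

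Start sites were the first place compared. The RefSeq promoter table (GRCh38.p14) held stretches of 250 bases before and 50 after the start for 8 of the 10 genes. IGF2 and IGFBP1 were not matched, and both ends of these genes were used instead. Of all 19974 protein-coding genes, 15812 had a start in that table, and both ends of the others were used. The shares of all genes below thus mix start sites with gene ends. A start site counted as covered when a region lay within 1 kb of it. It was covered in 8 genes with hairpin 1, in 6 with hairpin 2 and in 6 with shScramble. IGF1, IGF1R, IGFBP2, IGFBP4, IGFBP5 and IRS1 were covered in all 3 lists, which is 6 of 10 against 57.4% of all protein-coding genes. IGF2R and IGFBP3 were covered with hairpin 1 only, a pattern seen in 4.02% of all genes. IGF2 and IGFBP1 had neither end covered in any list, as had 25.3% of all genes.

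Within the promoter stretches themselves, coverage was compared base by base. They are shown for 4 genes where part or all of the stretch lies in a hairpin region and none of it in a shScramble region. The stretch of an alternative IGFBP2 start (216659317 to 216659616) meets this too but is not printed. It had 300 bases covered with hairpin 1, 0 with hairpin 2 and 0 with shScramble. How many of all promoter stretches show this pattern was not counted, so the number of such genes is no result. IGF2R and IGFBP3 were chosen by the rule that coverage of the start differs between lists, while IGF1R and IGFBP4 were added after their values were seen. Capitals mark bases covered by a region of at least 1 hairpin and by none of shScramble, and each stretch is printed 5′ to 3′ on the gene's strand.
IGF1R, chr15:98648289-98648588, plus strand: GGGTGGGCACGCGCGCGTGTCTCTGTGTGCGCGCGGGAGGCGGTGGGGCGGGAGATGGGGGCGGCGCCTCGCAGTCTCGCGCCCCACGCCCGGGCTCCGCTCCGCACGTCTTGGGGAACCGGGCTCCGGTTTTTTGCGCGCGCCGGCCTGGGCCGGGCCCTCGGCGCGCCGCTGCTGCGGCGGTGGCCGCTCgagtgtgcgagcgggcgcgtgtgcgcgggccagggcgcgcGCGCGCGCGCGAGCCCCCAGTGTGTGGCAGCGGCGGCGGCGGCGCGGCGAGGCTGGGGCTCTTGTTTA
IGF2R, chr6:159968832-159969131, plus strand: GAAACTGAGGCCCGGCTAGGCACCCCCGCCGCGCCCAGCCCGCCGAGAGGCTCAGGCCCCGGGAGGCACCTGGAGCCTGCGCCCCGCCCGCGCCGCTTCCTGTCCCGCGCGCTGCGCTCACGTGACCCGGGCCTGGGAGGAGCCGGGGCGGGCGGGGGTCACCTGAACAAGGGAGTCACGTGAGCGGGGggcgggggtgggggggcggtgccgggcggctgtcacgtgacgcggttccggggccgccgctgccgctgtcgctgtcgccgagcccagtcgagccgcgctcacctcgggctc
IGFBP3, chr7:45921223-45921522, minus strand: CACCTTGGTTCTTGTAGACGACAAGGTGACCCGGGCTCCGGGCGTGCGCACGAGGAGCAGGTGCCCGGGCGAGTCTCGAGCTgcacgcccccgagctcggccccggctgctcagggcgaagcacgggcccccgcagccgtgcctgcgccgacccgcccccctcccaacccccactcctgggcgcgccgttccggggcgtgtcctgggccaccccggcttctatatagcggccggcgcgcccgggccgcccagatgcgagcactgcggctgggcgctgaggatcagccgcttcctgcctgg
IGFBP4, chr17:40443200-40443499, plus strand: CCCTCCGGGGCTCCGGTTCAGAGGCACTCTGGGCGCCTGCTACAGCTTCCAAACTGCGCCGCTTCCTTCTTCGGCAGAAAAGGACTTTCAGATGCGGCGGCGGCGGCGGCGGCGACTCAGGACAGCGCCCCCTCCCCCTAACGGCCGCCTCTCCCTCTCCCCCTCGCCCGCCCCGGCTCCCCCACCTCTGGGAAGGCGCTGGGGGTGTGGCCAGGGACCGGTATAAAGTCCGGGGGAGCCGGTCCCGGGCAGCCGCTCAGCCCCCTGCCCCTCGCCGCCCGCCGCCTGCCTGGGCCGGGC

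The IGFBP4 stretch was covered over all 300 bases with hairpin 1 and with hairpin 2, against 0 bases with shScramble. In IGF1R, 192 bases were covered with hairpin 1 and 70 with hairpin 2, against 0 with shScramble, and the hairpin regions leave a gap just before the start. The IGF2R stretch had 189 bases covered with hairpin 1, 0 with hairpin 2 and 0 with shScramble, and the IGFBP3 stretch 82, 0 and 0. For comparison, the IRS1 stretch had 300, 300 and 60 bases covered, and that of IGFBP5 had 300 in every list.

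All 4 printed stretches are rich in G and C, with 79.7% for IGF1R, 78.7% for IGF2R, 74.7% for IGFBP3 and 74.0% for IGFBP4, against a median of 62.3% over 22140 promoter stretches of protein-coding genes. Both strands were searched for GGGCGG, the GC box, with overlapping matches counted. It occurs 6 times in the IGF2R stretch and 2 times in each of the other 3, and 56.3% of all promoter stretches hold at least 1 match. TATAAA occurs 1 time in the IGFBP4 stretch and in none of the other 3, against 9.47% of all stretches with a match. GGAAGGAA, a pair of the GGAA repeats that the fusion binds, occurs in none of the members' 11 stretches and in 3.69% of all. CACGTG occurs 3 times in the IGF2R stretch, against 8.34% of all stretches with a match.

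**Figure D1:**
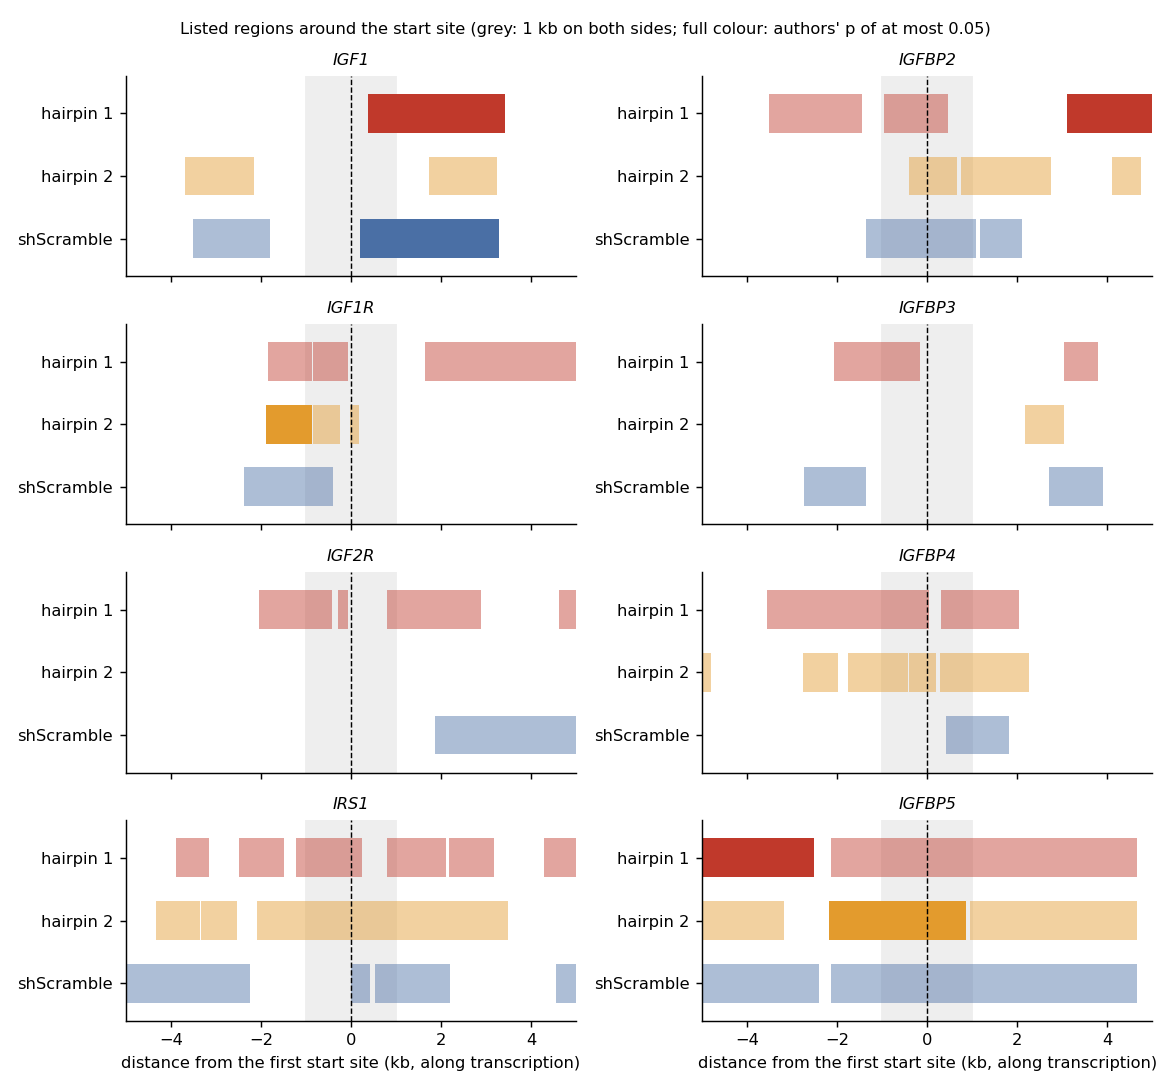
Regions within 5 kb of the first annotated start site of 8 genes, drawn along the direction of transcription (x axis, kb from the start). Rows are the hairpin 1, hairpin 2 and shScramble lists, full colour marks an authors' p of at most 0.05, and the grey band is 1 kb on both sides. At IGFBP4 a region of each hairpin lies over the start itself, while the shScramble region begins 411 bp past it, inside the band. IGF2R and IGFBP3 have a region in the band with hairpin 1 only.

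Counted over whole windows, most of the genes had more regions with the hairpins. Of the 10, 7 had more with both hairpins than with shScramble, against 35.3% of all protein-coding genes. Only IGF1 had fewer with both, against 12.0% of all. IGFBP3 and IRS1 had more with hairpin 1 and the same number with hairpin 2. With hairpin 1 alone, 9 of the 10 had more, against 71.1% of all genes, and with hairpin 2 alone 7 had more, against 38.3%. As a log2 ratio to shScramble, 1 being added to each number first, the median of the 10 genes was 0.55 with hairpin 1 and 0.19 with hairpin 2, against 0.36 and 0 over all genes. The 10 windows are not independent, because IGFBP2 and IGFBP5 are neighbours and share 14 places, and IGFBP1 and IGFBP3 share 5.

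The number of regions depends on how a list splits an open stretch. Neighbouring regions can carry the same authors' p and consecutive ranks, as 2.05% of regions did with hairpin 1, 1.39% with hairpin 2 and 1.04% with shScramble. Since regions of equal p are numbered in file order, these shares do not by themselves show that an open stretch was split. As an alternative chosen after seeing the data, regions of a list at most 1 kb apart were joined before counting. Then 5 of the 10 genes had more regions with both hairpins (IGF2, IGF2R, IGFBP2, IGFBP4 and IRS1), against 31.2% of all genes, and IGF1 still had fewer, against 9.83%.

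**Figure D2:**
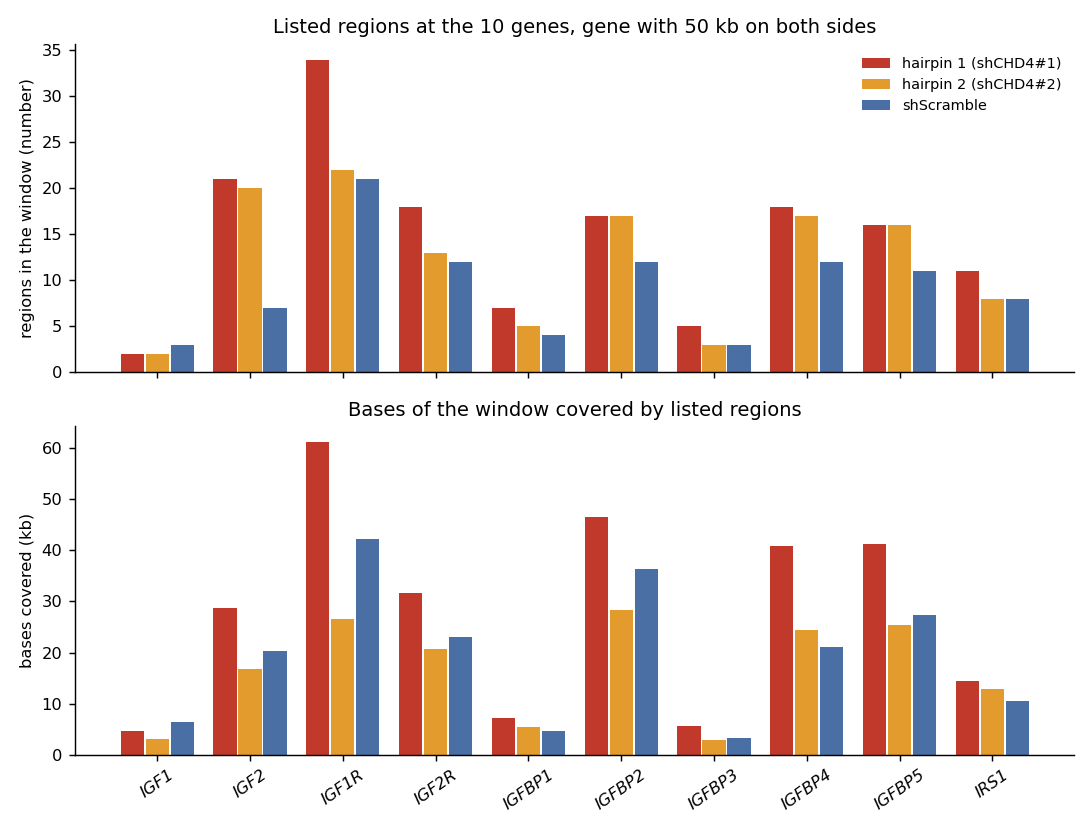
Number of listed regions (top) and bases covered in kb (bottom) in the window of each gene, with bars for hairpin 1, hairpin 2 and shScramble from left to right and no error bars, since each group has 1 list. IGF2 has 21 and 20 regions with the hairpins against 7 with shScramble, but 28.8 and 16.8 kb covered against 20.3 kb.

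To compare places, regions of the 3 lists that shared at least 1 bp were merged, which gave 127 different places in the 10 windows. A place that hairpin 1 and hairpin 2 shared but shScramble lacked is called gained with both, and one in shScramble alone lost with both. The windows held 23 gained with both, 18.1% of the places (95% Wilson interval 12.4 to 25.7, counting error only), against 10.0% of all merged regions. Lost with both were 8, or 6.3% (3.23 to 11.9), against 10.5%. A further 46 places were in all 3 lists (36.2%, against 33.2%), 28 with hairpin 1 only (22.0%, against 29.0%), 9 with hairpin 2 only (7.09%, against 5.44%), 10 absent with hairpin 2 only (7.87%, against 9.11%) and 3 absent with hairpin 1 only (2.36%, against 2.70%). IGF2 contributed 7 of the 23 gained places. Without IGF2, 16 of 110 were gained, or 14.5% (9.16 to 22.3). The intervals treat places as independent, although some gained places adjoin each other, as at IGF2 and IGF2R. The shares of all merged regions come from the whole genome and not from gene windows alone, so the comparison is a description only.

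Few gained places had a low authors' p, in the members' windows as in the whole series. Regions are numbered here by their rank in a list, from the lowest authors' p, and since the lists differ in length, numbers from different lists show no change. Regions of equal p are numbered in file order, so their numbers within a tie carry no order. This holds for hairpin 1 regions with a p of 0.949, which run from number 115538 to 121041 in these windows. At gained places the median rank, as a share of the list, was 49.6% with hairpin 1 and 66.6% with hairpin 2, against 41.6% and 60.5% over all gained regions. Just 1 of the 23, inside IGFBP2, had an authors' p of at most 0.05 in either hairpin list, against 8.41% of all gained regions. None of the 8 lost places had such a p with shScramble, against 0.486% of all lost regions. The 13 places that had it with shScramble were present in all 3 lists, as were 94.4% of all such regions.

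**Figure D3:**
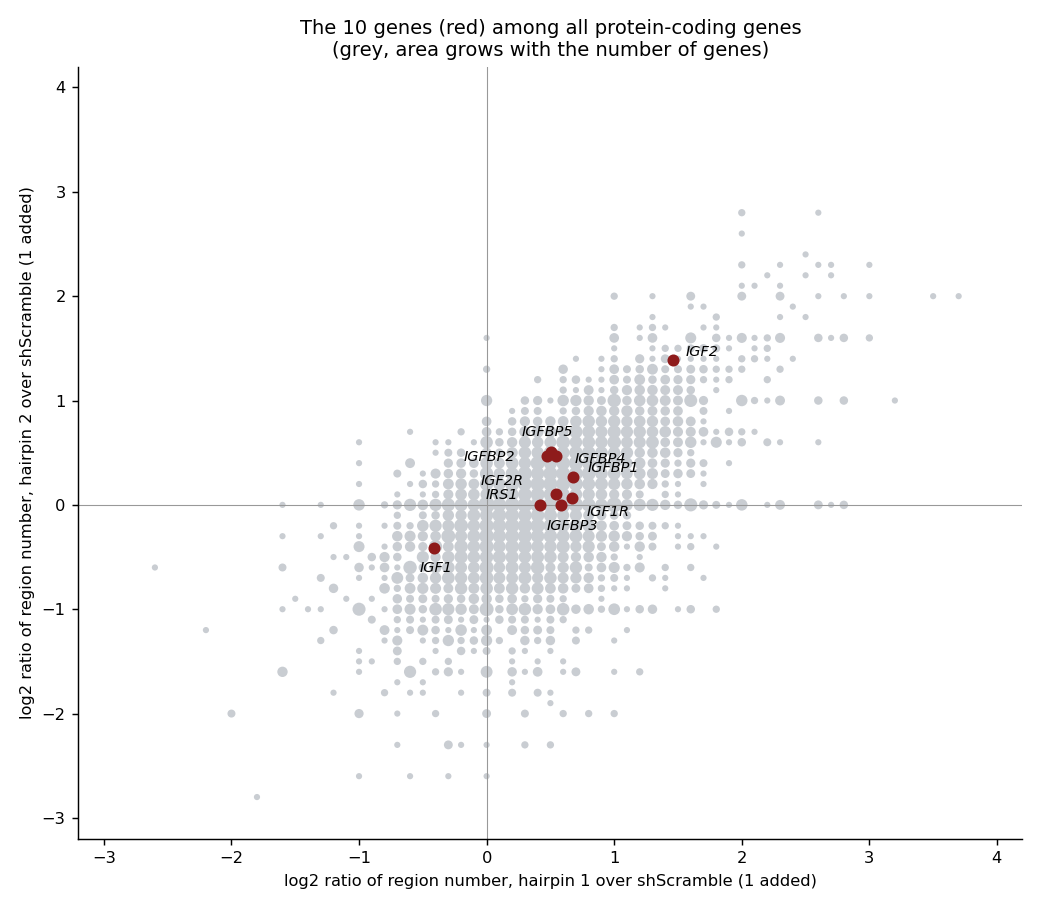
Log2 ratio of region number with 1 added, hairpin 1 over shScramble (x axis) against hairpin 2 over shScramble (y axis), for the 10 genes in red and all protein-coding genes in grey, binned to 0.1 with the area growing with the number of genes. Both axes share the shScramble list, so the slope of the grey cloud is no result. IGF2 lies at 1.46 and 1.39, and IGF1 at -0.42 on both axes.

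IGF1, the circulating growth factor (chromosome 12, 102395874 to 102481839), had the fewest regions. Its window held 2 with hairpin 1, 2 with hairpin 2 and 3 with shScramble, or 1.08, 1.08 and 1.61 per 100 kb. With such low numbers the ratio of hairpin 1 to shScramble, 0.667, has an exact interval of 0.0557 to 5.82 for counting error. The place common to all lists (102478321 to 102481550) covers the alternative start at 102478550 and holds number 8368 of the hairpin 1 list, 25736 of hairpin 2 and 8185 of shScramble. It spanned 3060 bp, 1500 bp and 3090 bp in the same order, so it was narrowest with hairpin 2. The place upstream of the gene (102483551 to 102485430) was absent with hairpin 1, and the one in its body (102414711 to 102416210) was absent with hairpin 2. IGF1 counts as covered with hairpin 2 through this alternative start, since the first start (102481747) was 1737 bp from a hairpin 2 region. All 3 places also lie in the long non-coding RNA gene LINC02456.

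IGF2, the fetal growth factor that is imprinted and read from the paternal allele (chromosome 11, 2129117 to 2149566), had the largest ratio of region numbers among the 10 genes. Its window held 21 regions with hairpin 1, 20 with hairpin 2 and 7 with shScramble. The ratios were 3.0 (exact interval 1.23 to 8.35, counting error only) and 2.86 (1.16 to 8.0). Both log2 ratios, 1.46 and 1.39, exceeded 1, which was so in 3.19% of all genes. Among the 1397 genes with the same number of shScramble regions, the medians were 9.0 with hairpin 1 and 7.0 with hairpin 2, and 6 genes, IGF2 among them, reached its mean log2 ratio. With regions at most 1 kb apart joined, IGF2 had 10, 13 and 5 regions, log2 ratios of 0.87 and 1.22, and 412 genes reached its mean, against 218 before joining.

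The extra regions at IGF2 were short, and the bases covered do not follow the region number. Covered were 28.8 kb with hairpin 1, 16.8 kb with hairpin 2 and 20.3 kb with shScramble, and the median widths were 1080 bp, 755 bp and 2680 bp. No shScramble region lay inside the gene, while 3 gained places did. They are 2133181 to 2134350, which overlaps the microRNA gene MIR483, then 2137101 to 2137960 and 2138411 to 2138910. Another place inside the gene was listed with hairpin 1 only (2131471 to 2132740) and another with hairpin 2 only (2132801 to 2133180).

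Beyond the gene end nearest INS, 1065 bp away, lay a gained place (2150631 to 2152590) that held number 41693 of the hairpin 1 list and 26475 of the hairpin 2 list. Next to it came another gained place (2152591 to 2153610) and then a place lost with both (2153621 to 2156490), so that the hairpin regions end just before the shScramble region begins. The shScramble regions here and over INS hold numbers 64159 and 64160 with the same p of 0.828. INS itself lay in a place (2156941 to 2164430) where hairpin 1 had no region and hairpin 2 had 2 short ones of 1270 bp in all, against 1 of 7100 bp with shScramble. Only the shScramble region spanned INS (2159779 to 2161209), since the hairpin 2 regions ended at 2158210, short of the gene. TH, the tyrosine hydroxylase gene, held the gained place 2165441 to 2166470.

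Common to all lists at IGF2 were 4 places. The best ranked (2088911 to 2093730), 35.4 kb from the gene, was number 2095 with hairpin 1, 1179 with hairpin 2 and 8660 with shScramble, with authors' p-values of 0.000466, 0.000228 and 0.0303. The others (2172851 to 2176070, 2185201 to 2188740 and 2192071 to 2200320) lay beyond TH, and the last of them was split into 3 regions with hairpin 1 and 5 with hairpin 2, against 1 with shScramble. The window also held a gained place at 2097811 to 2103140, and places with hairpin 1 only at 2096751 to 2097810 and 2190381 to 2192060. Taking only the best 80000 regions of each list, IGF2 had 10 regions with hairpin 1, 20 with hairpin 2 and 7 with shScramble. With an authors' p of at most 0.05 it had 2, 1 and 1.

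IGF1R, the receptor tyrosine kinase (chromosome 15, 98648539 to 98964530, plus strand), had the most regions in its long window, 34 with hairpin 1, 22 with hairpin 2 and 21 with shScramble. Per 100 kb these are 8.17, 5.29 and 5.05, below the density at IGFBP4 or IGFBP2. The ratio with hairpin 1 was 1.62 (0.913 to 2.94) and with hairpin 2 1.05 (0.55 to 2.0), which is close to the 1.43 and 0.97 of the whole lists. With regions at most 1 kb apart joined, the numbers were 27, 16 and 17, so that hairpin 2 no longer had more. Bases covered were 61.2 kb, 26.5 kb and 42.1 kb, so hairpin 2 covered the least with a region number near that of shScramble.

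Each list had a region within 1 kb of the IGF1R start, the shScramble one 409 bp away. The place just upstream (98646171 to 98648480) held 2 regions in each list, and the best of them was number 17919 with hairpin 1, 10383 with hairpin 2 and 58147 with shScramble. Directly over the start lay a region of 200 bp (98648521 to 98648720) listed with hairpin 2 only, at number 18726. This stretch also holds the non-coding RNA gene IRAIN. The next places in the gene were with hairpin 1 only (98650191 to 98653530 and 98660501 to 98663870) or with hairpin 2 only (98657621 to 98658840 and 98658941 to 98659810).

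The strongest regions of IGF1R lay deep in the gene and were common to all lists. The place 98871601 to 98875530, 223 kb from the start, was the best ranked with hairpin 2 and shScramble. It was number 5134 with hairpin 1, 3689 with hairpin 2 and 2178 with shScramble. The best with hairpin 1 (98777181 to 98780500), 129 kb from the start, was number 4522, 8079 and 4175. At 98849141 to 98855100 the numbers were 12980 with hairpin 1, 5280 with hairpin 2 and 80343 with shScramble, whose region of 5360 bp had a p of 0.951. Also in all lists were 98744811 to 98748900, 98798621 to 98801830, 98864581 to 98867420 and 98880321 to 98882930 in the gene, and 98964171 to 98966710 across its far end. Upstream of it were 98598901 to 98600880 and 98619621 to 98620860.

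Gained with both in the IGF1R window were 4 places, and 2 lay in the gene. The one at 98906331 to 98908750 had the better ranks, 22720 with hairpin 1 and 20140 with hairpin 2, and the other was 98822301 to 98823740. The remaining gained places (98983221 to 98984010 and 99006981 to 99008250) lay in PGPEP1L, the next gene. Lost with both were 98609581 to 98610350 upstream and, in the gene, 98736581 to 98739560 and 98868401 to 98869060. Hairpin 2 lacked 4 places that hairpin 1 and shScramble had, 98634041 to 98638530 upstream and 98804961 to 98807780, 98855381 to 98858020 and 98940261 to 98942500 in the gene, and it alone listed 98801831 to 98802590.

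Most of the other places at IGF1R belonged to hairpin 1, whose whole list is the longest. With hairpin 1 only were 98733461 to 98735220, 98735461 to 98736500, 98760151 to 98761110 and 98772711 to 98774280 in the middle of the gene. Nearer its far end were 98922441 to 98924940, 98950971 to 98953620 and 98955751 to 98957300, and in or beside PGPEP1L 98979741 to 98981260, 99005621 to 99006980 and 99008251 to 99008450. Genes on other chromosomes with region numbers most like those of IGF1R over the 3 lists were SLC38A10 (34, 22 and 20), SDK2 (33, 22 and 22) and RPH3A (35, 22 and 20). Their Euclidean distances over the 3 log2 numbers, with 1 added, were 0.0671, 0.0766 and 0.0785, and ZFYVE28 tied with RPH3A.

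**Figure D4:**
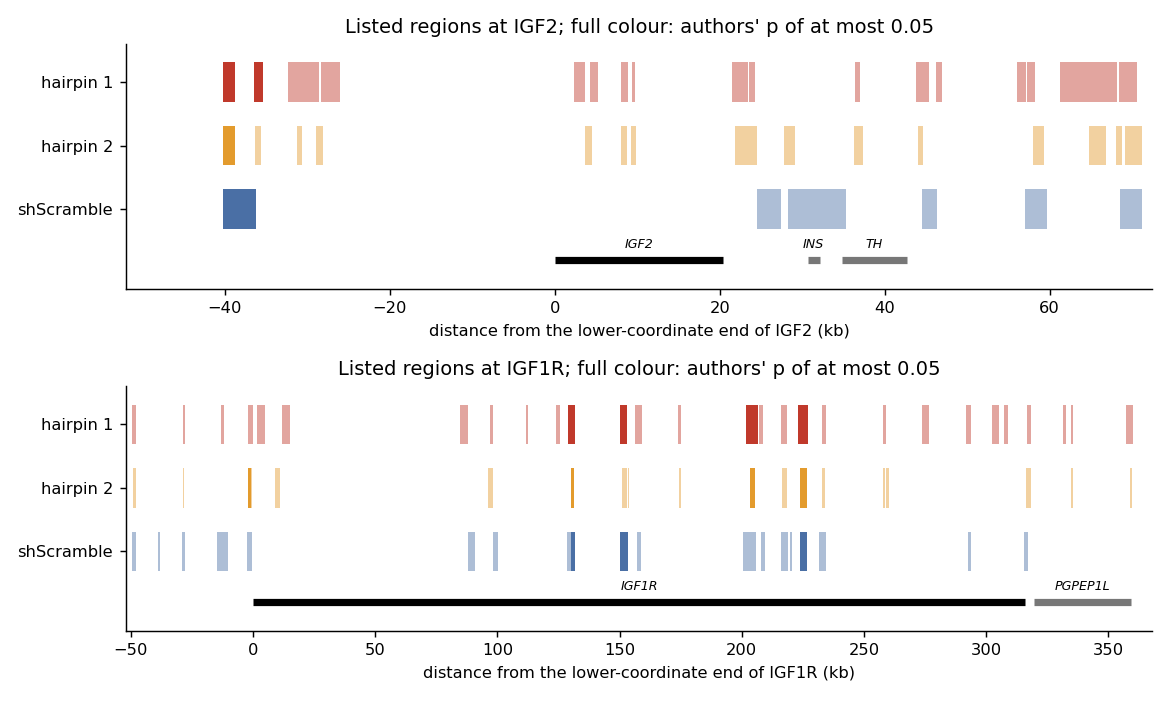
Listed regions in the windows of IGF2 (top) and IGF1R (bottom), with the distance in kb from the lower-coordinate end of the gene on the x axis and the hairpin 1, hairpin 2 and shScramble lists as rows. Full colour marks an authors' p of at most 0.05 and bars below are genes. Inside IGF2 regions are drawn for both hairpins and none for shScramble, and the full-colour regions deep in IGF1R stand in all rows, except at 150 kb, where the p with hairpin 2 is 0.0956, and at 201 kb, where that with shScramble is 0.951.

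IGF2R, which clears IGF2 and carries mannose 6-phosphate-tagged enzymes (chromosome 6, 159969082 to 160111504, plus strand), had 18 regions with hairpin 1, 13 with hairpin 2 and 12 with shScramble. The ratios, 1.5 and 1.08, were again near those of the whole lists. The best-ranked region of the hairpin lists over all 10 windows lay here, 59.5 kb into the gene (160028631 to 160033620), at number 535 with hairpin 1 and 712 with hairpin 2, against 1490 with shScramble. The authors' p-values there were 1.24e-05, 6.06e-05 and 0.000457. In the same gene the place 159975821 to 159980610, 6.74 kb from the start, was number 1208, 7665 and 19284.

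The IGF2R start itself was covered with hairpin 1, by a region of 230 bp (159968791 to 159969020) 62 bp upstream of the start and by a longer one (159967041 to 159968660) before it. Downstream, 159969881 to 159975620 was absent with hairpin 2 and 159982641 to 159985740 absent with hairpin 1. Common to all lists were also 159950921 to 159955040 upstream, and 159995811 to 159997710 and 160102551 to 160107620 in the gene. With hairpin 1 only, 159988581 to 159989830 and 159989831 to 159992060 were listed, side by side. No listed region overlapped AIRN, the antisense transcript in the gene.

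Of the places gained with both at IGF2R, 2 adjoin each other at its far end (160110451 to 160111860 and 160111861 to 160113940). Others lay upstream (159917361 to 159919490, in MAS1, and 159929141 to 159930910). All of these ranked low, the best at number 40415 with hairpin 1 and 62184 with hairpin 2. Upstream too were places lost with both, 159940311 to 159941270 and 159941541 to 159942510, at numbers 70370 and 43700 of the shScramble list.

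The binding proteins fell into neighbouring pairs and IGFBP4. IGFBP1, a liver-made binding protein (chromosome 7, 45888488 to 45893660), had 7 regions with hairpin 1, 5 with hairpin 2 and 4 with shScramble, and none of them lay in the gene. The closest place was 15.4 kb away. IGFBP3, the main carrier of IGFs in blood (chromosome 7, 45912245 to 45921272, minus strand), had 5, 3 and 3. Neither window held a region with an authors' p of at most 0.05 in any list.

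The 5 places of IGFBP3 are all shared with the IGFBP1 window. In the gene lay 45917371 to 45919110, in all lists, with ranks of 31476 with hairpin 1, 60042 with hairpin 2 and 28351 with shScramble. Just upstream of the start lay 45921441 to 45924000, absent with hairpin 2. There the hairpin 1 region came within 169 bp of the start and the shScramble region within 1369 bp. A place 18.1 kb upstream (45939421 to 45940970) was gained with both. The remaining places of IGFBP3 lay in CCDC201, on the far side of IGFBP1. They were 45871771 to 45873130 in all lists and, beside it, 45870761 to 45871770 with hairpin 1 only. The IGFBP1 window further held 45852521 to 45855060 in all lists and 45851271 to 45852520 with hairpin 2 only.

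IGFBP2 and IGFBP5 (chromosome 2, 216632828 to 216664436, plus strand, and 216672105 to 216695549, minus strand) lie tail to tail. IGFBP2 had 17 regions with hairpin 1, 17 with hairpin 2 and 12 with shScramble, and IGFBP5 had 16, 16 and 11. The hairpins thus gave equal numbers at each gene, which was seen at no other gene here but IGF1. In bases the order was different, with 46.5 kb, 28.3 kb and 36.3 kb at IGFBP2 and 41.3 kb, 25.3 kb and 27.4 kb at IGFBP5. Among regions with an authors' p of at most 0.05, hairpin 2 had fewer than shScramble at both genes, 3 against 4 at IGFBP2 and 2 against 3 at IGFBP5.

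Most places of this pair were common to all lists. Over the IGFBP2 start lay 216631461 to 216635580, with 1 region with hairpin 1, 3 with hairpin 2 and 2 with shScramble. Over the IGFBP5 start lay 216690901 to 216697730, where hairpin 1 had a region of 6780 bp with a p of 0.949 and hairpin 2 had 2 regions with a best p of 0.0151, against a shScramble region of 6780 bp with a p of 0.951. In IGFBP2, 216655511 to 216660850 was number 4441, 27148 and 6440. It includes an alternative start at 216659567, whose promoter stretch was covered over 300 bases with hairpin 1, 0 with hairpin 2 and 0 with shScramble. In IGFBP5, 216676741 to 216684000 was number 118746, 8903 and 33224, where the hairpin 1 number lies inside a tie at a p of 0.949.

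The place gained with both (216635921 to 216638290), 3.09 kb into IGFBP2, is the only gained place of the 10 windows with an authors' p of at most 0.05, at 0.0167 with hairpin 1 (number 9212) and 0.499 with hairpin 2. The hairpin 1 region spans 2370 bp and that of hairpin 2 640 bp. In the same gene 216643741 to 216645460 was absent with hairpin 2. No place of this pair was lost with both.

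The remaining places of the pair in all lists were 216595271 to 216599540, 216614931 to 216620360 and 216620661 to 216622560 upstream of IGFBP2, and 216664741 to 216667910 between the genes. There were also 216686921 to 216688620 in IGFBP5, and 216697961 to 216701730 and 216713271 to 216717540 upstream of it. Of these, 216595271 to 216599540 was the best ranked, number 4640 with hairpin 1, 8235 with hairpin 2 and 2686 with shScramble. With hairpin 1 only were 216599921 to 216604140, 216629311 to 216631380, 216684281 to 216685270 and 216720041 to 216723600, and with hairpin 2 only 216686221 to 216686920.

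IGFBP4, a binding protein that inhibits IGF action until the protease PAPPA cuts it (chromosome 17, 40443450 to 40457725, plus strand), was after IGF2 the gene with the highest mean log2 ratio of the 10. It had 18 regions with hairpin 1, 17 with hairpin 2 and 12 with shScramble. The ratios were 1.5 (0.684 to 3.41) and 1.42 (0.638 to 3.25), and 4128 of all genes reached its mean log2 ratio of 0.51. Bases covered were 40.9 kb, 24.4 kb and 21.1 kb, more with each hairpin. Among regions with an authors' p of at most 0.05 the direction was the opposite, with 1 at IGFBP4 with hairpin 1, 2 with hairpin 2 and 4 with shScramble.

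Of the 4 places gained with both at IGFBP4, 3 lay before or over the start. In the stretch from 40432321 to 40443640 the hairpins gave 3 gained places, 40432321 to 40434460, 40435971 to 40438640 and 40439901 to 40443640, where shScramble had no region. The last lies over the start itself, with 2 regions with hairpin 1 and 3 with hairpin 2. Its best ranks were 53361 with hairpin 1 and 28553 with hairpin 2, with p-values of 0.493 and 0.312. The place next to it in the gene (40443731 to 40445710) was in all lists. Another gained place (40460581 to 40462520) lay past the gene, followed by 40462521 to 40463930 with hairpin 1 only.

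Most other places in the IGFBP4 window were in all lists. In the gene lay 40450461 to 40456920 and 40456921 to 40460580, in all lists, and the one nearer the far end was number 29985 with hairpin 1 and 28300 with hairpin 2, against 8607 with shScramble. Over one end of TOP2A, a topoisomerase gene, lay 40416431 to 40419030, the best-ranked shScramble region over the 10 windows. With hairpin 1 a region of 2230 bp there had a p of 0.949, with number 117536 inside a tie. With hairpin 2 the number was 913, against 421 with shScramble. Overlapping TNS4, 40467911 to 40478440 was number 985 with hairpin 1, 1686 with hairpin 2 and 1987 with shScramble. Also in all lists were 40398881 to 40400140, 40419181 to 40420660 and 40488781 to 40492050, while 40422781 to 40424220 was absent with hairpin 2 and 40498541 to 40500720 was with hairpin 1 only.

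**Figure D5:**
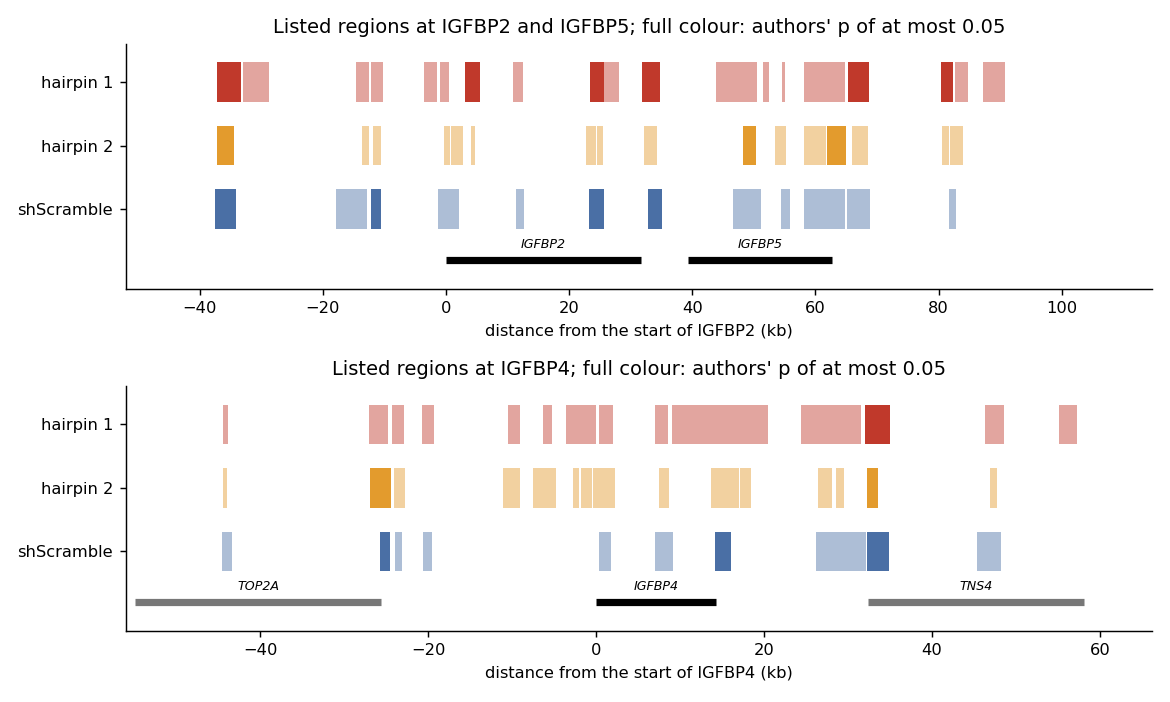
Listed regions in the windows of IGFBP2 and IGFBP5 (top) and of IGFBP4 (bottom), with the distance in kb from the start of IGFBP2 or IGFBP4 on the x axis and the hairpin 1, hairpin 2 and shScramble lists as rows. Full colour marks an authors' p of at most 0.05. Upstream of IGFBP4 regions are drawn for both hairpins in the 3 places gained before and over the start, and none for shScramble there.

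IRS1, the adaptor that links IGF1R to PI3K (chromosome 2, 226731312 to 226799820, minus strand), had 11 regions with hairpin 1, 8 with hairpin 2 and 8 with shScramble. Among the best 80000 regions of each list it had 5, 7 and 8, so that both hairpins had fewer than shScramble. Its start lay in a broad place (226796331 to 226804790) with 5, 3 and 4 regions, whose bases covered were 5510 bp, 7360 bp and 4840 bp. None of its regions had an authors' p of at most 0.05, and the best ranks in the window were 25933 with hairpin 1, 17563 with hairpin 2 and 23380 with shScramble. In the gene, 226772391 to 226774250 and 226791141 to 226792950 were in all lists, 226774481 to 226775490 was lost with both and 226793501 to 226795530 was absent with hairpin 2. Upstream, in RHBDD1, 226818741 to 226819740 was gained with both and 226836131 to 226836670 was listed with hairpin 2 only. The others were 226692991 to 226694210 and 226751651 to 226753980 with hairpin 1 only and 226770721 to 226772320 with hairpin 2 only.

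Other genes of the pathway were counted the same way. Of 40 further genes, chosen for their place in ligand supply, receptor signalling, PI3K and MAPK signalling or IGF2 mRNA binding, more regions with both hairpins were counted at 12 (30.0%) and fewer at 4 (10.0%), against 35.3% and 12.0% of all protein-coding genes. Their median log2 ratios were 0.31 with hairpin 1 and -0.09 with hairpin 2. Among the largest mean ratios were those at INS, the insulin gene beside IGF2 (20 regions with hairpin 1, 17 with hairpin 2 and 7 with shScramble), AKT1 (20, 23 and 12) and HRAS (23, 20 and 12). The INS window overlaps that of IGF2 and holds mostly the same regions, so INS is no separate observation. AKT1 encodes a kinase downstream of PI3K and HRAS a small GTPase of the MAPK pathway. The smallest were at RPS6KB1, the S6 kinase (6, 4 and 8), PIK3CA, the catalytic PI3K subunit (9, 6 and 11), MAP2K1, a MAPK kinase (11, 5 and 11), and IGFBP7, a related binding protein (9, 6 and 10). A start site or gene end was covered in every list at 32 of the 40 genes, against 57.4% of all genes, and with both hairpins and not shScramble at 3, against 7.02%, which were HRAS, PAPPA and FOXO1, and it was covered with shScramble alone at INS. PAPPA and FOXO1 are named after their values were seen.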

How the data were processed

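Tools named in the submitters' processing notes are deepTools 3.2.1, SAMtools 1.9, BWA, FastQC 0.11.7 and Trimmomatic 0.36. Builds named there are dm6 and GRCh38. Not given in the sources used here are the peak caller, any Tn5 shift and any use of the Drosophila spike-in. The deposited lists, filed under replicate 1 of each group, bear the name of ChIP-R, which combines peak lists of replicates. Reading each as the combined list of its group is an inference. Each deposited region has 2 whole-number scores of no stated unit, and a p-value and a q-value. Regions were ranked and filtered by the deposited p-value within each list, and ranks from several lists stand side by side as a description only.

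Regions on chromosomes 1 to 22 and X were kept, and starts were counted from 1. Gene positions came from the RefSeq table (GRCh38.p14), which gives no strand or exons. Strand came from the RefSeq promoter table, and exonic, intronic and UTR classes are not analysed here. Regions sharing at least 1 bp were merged. Computation used Python 3.11.15, pandas 2.3.3 and scipy 1.17.1, and merging, counting and joining were tested on simulated regions. Exact and Wilson intervals (95%) cover counting error only and treat regions or places as independent. No test was possible with 1 list per group. Alternatives were a window of 5 kb, an authors' p of at most 0.05, the best 80000 regions, an overlap of 50% of the shorter region, and leaving out regions over 20 kb or with a score below 0. Joining regions at most 1 kb apart was added after seeing the data. Named genes were the 10 members, the 4 pathway genes with the largest and the 4 with the smallest mean ratio, the 3 genes most like IGF1R, and the promoter stretches whose coverage of the start differs between lists. Some genes and places that these rules name are not reported here. The members and lists were chosen with earlier results of these data known.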

Additional observations from a re-analysis of the deposited data

How the results depend on the processing

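No paired analysis was possible because each group has 1 list, and no replicate could be left out for the same reason. The main numbers, 23 places gained with both, 8 lost with both, 7 genes where both hairpins gave more regions, 1 where both gave fewer and 6 start sites covered in all lists, were recomputed under 4 other settings, the places under a further one (overlap), and all under 1 chosen after seeing the data, the joining of regions at most 1 kb apart. With 5 kb in place of 50 kb, a smaller window by construction, 13 places were gained and 4 lost. With an authors' p of at most 0.05, which keeps fewer regions by construction, 2 places were gained and 2 lost, both hairpins gave more regions at 2 genes, and 0 start sites were covered in all lists. With the best 80000 regions, an equal number from each list, 17 places were gained and 12 lost, and 4 start sites were covered in all lists. At that setting 2 genes, IGF1 and IRS1, had fewer regions with both hairpins, and the cause was not tested. With an overlap of 50% of the shorter region, a stricter rule for a shared place, 14 places were lost. With regions joined, which makes them wider by construction, 4 places were lost. The other recomputed numbers stayed within 1.5 times the main ones, and lists without wide or negative-score regions gave the main numbers. Of 100 log2 ratios of single genes under the alternatives, 97 stayed inside the counting interval of the main ratio and 3 moved outside it. These intervals are wide, and 6 ratios turned in sign, at IGFBP2 and IGFBP5 with hairpin 2 (-0.32 and -0.42) and IGFBP4 with both hairpins for p up to 0.05, at IRS1 with hairpin 1 (-0.58) for the best 80000 regions, and at IGF1R with hairpin 2 (-0.08) for joined regions. The 3 outside came from keeping regions with p up to 0.05, at IGF2 with hairpin 2 (0) and at IGFBP4 with hairpin 1 (-1.32) and hairpin 2 (-0.74). The 97 include the 20 ratios without wide or negative-score regions, which equal the main ones. They also include ratios of 0 where no list had a region. These were at IGFBP1 with 5 kb, and at IGFBP1, IGFBP3 and IRS1 for p up to 0.05. The number 97 thus overstates how stable the ratios are. Unknown read depth limits every number of regions.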
